A study of Mus musculus with 2 samples.

Results

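Saa1 colonocytes are absorptive epithelial cells of the mouse colon in which the count of Saa1, the gene of an acute-phase lipid-binding protein, exceeded that of Cyp2c55, the gene of a cytochrome P450 enzyme. They were chosen by their corrected counts in the wild-type colon library. Corrected counts are UMI counts adjusted by the authors to a common depth per cell. A cell needed an Epcam count of at least 5, a Guca2a count of at least 10, Muc2 and Chgb counts below 20, a sum of Mki67, Birc5, Ube2c and Ccna2 below 5, and Saa1 above Cyp2c55. In total, 139 cells met the rule, out of 3008 cells with Epcam of at least 5, 7495 cells of the library and 11904 cells of the series. They made up 4.62% of the Epcam-positive cells (Clopper-Pearson 95% interval 3.90 to 5.43, counting error only).

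The library came from the colon of C57BL/6 wild-type female mice of 8 to 12 weeks, with cells of 3 mice pooled and no genetic change or treatment. CD45-negative cells were sorted as EpCAM-positive or EpCAM-negative and mixed in equal parts before a version 3 droplet kit for 3' ends was used, so shares are given among Epcam-positive cells and not of the tissue. The other library of the series, sorted on GFP from the mesenchyme of Pdgfra-H2B-eGFP mice and made with a version 2 kit, enters here only for 1 count at the end. No label ties a cell to a mouse or to a region of the colon, so each class is 1 sample: there is no test or p-value, the spread between mice is unknown, and all differences are descriptions of this library.

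The colon surface is lined by colonocytes, which take up sodium, chloride, water and short-chain fatty acids, secrete bicarbonate and hold bacteria away from the tissue. Sodium uptake in the distal colon runs largely through the aldosterone-controlled channel ENaC, whereas proximal segments rely more on sodium-proton exchange. Hox genes carry position along the gut axis, with paralogs at the posterior end of each cluster expressed towards the anal end. Serum amyloid A proteins bind lipids and retinol, and their genes respond to bacteria and to cytokines.

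The same gate held 532 cells, of which 139 were Saa1 colonocytes (26.1%, 22.4 to 30.1), 343 had more Cyp2c55 than Saa1 and are called Cyp2c55 colonocytes (64.5%, 60.2 to 68.5), and 50 had equal counts (9.40%), 44 of these with both genes at 0. The comparison groups were the 343 Cyp2c55 colonocytes and the 2869 other Epcam-positive cells, a group that includes the Cyp2c55 colonocytes. The rule used Saa1, Cyp2c55, Guca2a, Epcam, Muc2, Chgb and the 4 cell cycle genes, and the remaining genes were read in the same cells, so nothing below is independent of the selection. In the plot of Saa1 against Cyp2c55 the cells did not fall on a line, since 33 Saa1 colonocytes had no Cyp2c55 and 106 had a count of at least 1.

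**Figure D1:**
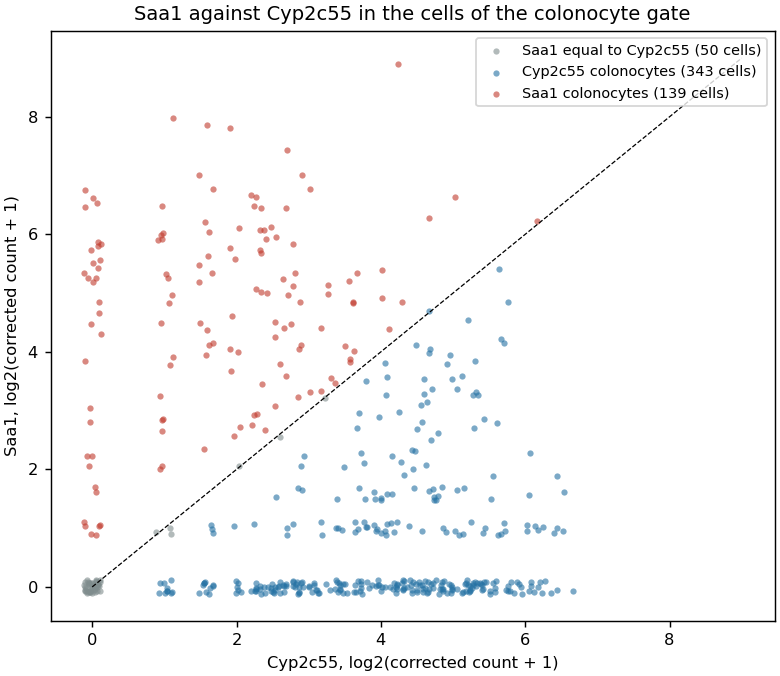
Each point is 1 cell of the colonocyte gate, with Cyp2c55 on the x axis and Saa1 on the y axis, both as log2 of the corrected count plus 1, and points are shifted slightly at random so that they do not hide each other. The 139 Saa1 colonocytes lie above the dashed line of equal counts, the 343 Cyp2c55 colonocytes lie under it, and most of the 50 cells on it sit at 0 for both genes.

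Saa1 lies on chromosome 7 (GRCm38, 46740497 to 46742980, minus strand) beside its near copy Saa2 (46751790 to 46754313, plus strand), and Cyp2c55 lies on chromosome 19 (39007019 to 39042693, plus strand) beside Cyp2c65 (39061015 to 39093944, plus strand). The sequences upstream of the 3 genes are shown because Saa1 and Cyp2c55 divide the gate and because Saa1 and Saa2 are hard to tell apart. Each runs 5' to 3' on the strand of its gene from 250 to 51 bases before the RefSeq start, on build GRCm38.p6. Capitals mark TTGCNNAAT, the letters of a C/EBP-like motif, in Saa1 (chr7:46743031-46743230, minus strand) and Saa2 (chr7:46751583-46751782, plus strand). In Cyp2c55 (chr19:39006769-39006968, plus strand) they mark TTTATNG read on the opposite strand, the letters of a motif shared by caudal and Hox13 proteins.
Saa1: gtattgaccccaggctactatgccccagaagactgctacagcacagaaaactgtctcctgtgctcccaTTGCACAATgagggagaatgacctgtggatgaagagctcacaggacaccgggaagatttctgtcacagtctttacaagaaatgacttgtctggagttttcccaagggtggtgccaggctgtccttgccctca
Saa2: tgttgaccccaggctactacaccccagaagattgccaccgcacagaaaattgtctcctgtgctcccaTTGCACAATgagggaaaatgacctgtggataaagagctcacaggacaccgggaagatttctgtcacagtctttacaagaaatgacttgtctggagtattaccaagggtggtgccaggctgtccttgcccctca
Cyp2c55: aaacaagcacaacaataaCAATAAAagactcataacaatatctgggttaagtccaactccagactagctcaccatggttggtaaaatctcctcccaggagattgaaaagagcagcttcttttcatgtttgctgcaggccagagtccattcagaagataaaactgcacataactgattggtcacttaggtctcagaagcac

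Both strands of 32851 RefSeq promoters, each from 250 bases before to 50 after the start, were searched. TTGCNNAAT occurred in 2.40% of them and TTTATNG in 10.9%. Among 8 genes searched (Saa1, Saa2, Cyp2c55, Aqp8, Fxyd4, Slc37a2, Tgm3 and Car4), TTGCNNAAT was in Saa1 and Saa2, and TTTATNG was in Cyp2c55, Aqp8, Tgm3 and Car4. In Tgm3 and Car4 the TTTATNG match overlaps a match to TATAAA, which occurred in 13.6% of promoters. The Saa1 and Saa2 promoters were 96.0% identical over 299 aligned bases. Their transcripts were 94.4% identical over 606 bases, with a longest shared run of 99 bases, so reads may be split between the genes and their levels are uncertain. Cyp2c55 and Cyp2c65 transcripts were 73.8% identical, with a longest shared run of 38 bases.

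The libraries shared 1 cell barcode. Total corrected counts had a median of 9710 in Saa1 colonocytes, 9689 in Cyp2c55 colonocytes, 9641 in other Epcam-positive cells and 8333 in the 4487 cells with Epcam below 5, and the number of genes per cell had medians of 2835, 2916, 3165 and 2522. Mitochondrial counts made up a median of 13.8% in Saa1 colonocytes (6.00 to 24.8), 12.8% in Cyp2c55 colonocytes and 9.44% in other Epcam-positive cells. In all, 124 of the 139 Saa1 colonocytes were at 10% or more, and the part of this in the results was not tested. Scrublet called 7 of 7495 cells as doublets (0.0934%), too few for the caller to have worked, so doublets were not assessed.

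A gene was counted as higher or lower when the ratio of mean corrected counts, with 0.01 added to each mean, was past 2-fold, among genes with a mean of at least 0.1 in either group. Against Cyp2c55 colonocytes, 593 of 8205 genes were higher in Saa1 colonocytes (7.23%) and 637 lower (7.76%), with a median log2 ratio of -0.0024. Against other Epcam-positive cells, 854 of 9542 genes were higher (8.95%) and 2486 lower (26.1%), with a median of -0.32. These shares are the background for the counts of gene lists that follow. A gene that passed through a single group, with a mean under 0.1 in the other, could only be called higher in the group it passed through. Such genes are part of the counts.

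RNA of other cell types was not spread evenly. Cells with 10 or more counts over the fibroblast, endothelial, immune and red cell lists were 22 of 139 Saa1 colonocytes (15.8%), 31 of 343 Cyp2c55 colonocytes (9.04%) and 549 of 2869 other Epcam-positive cells (19.1%). The 12 fibroblast and smooth muscle markers summed to a mean of 14.6 in Saa1 and 3.66 in Cyp2c55 colonocytes, with a median of 0 in both and highest cells at 272 and 183. Of these 12 markers, 10 were past 2-fold higher than in Cyp2c55 colonocytes with those cells in, and none passed the expression filter without them. The cells were picked by a sum that includes these markers, so their fall was fixed by the choice. The stromal genes C3, Col14a1, Pi16, Mfap5 and Tagln were among the 15 with the largest ratios over Cyp2c55 colonocytes, with log2 ratios of 3.16 to 3.82. All of the class counts of C3, Col14a1, Pi16 and Mfap5 (100%) lay in the 22 cells, so that the class was at 0 for them without those cells and no ratio is given. For Tagln, which is among the 12 markers, 158 of 159 counts lay there. Among defining markers of other types in Saa1 colonocytes, 5 of 7 endothelial markers and 7 of 11 immune markers, Ptprc included, were at 0. Without these cells 539 of 7969 genes were higher and 679 lower than in the remaining Cyp2c55 colonocytes.

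The cells carried the markers of colonocytes. The 14 colonocyte markers summed to between 35 and 879 counts with a median of 325 in Saa1 colonocytes, 358 in Cyp2c55 colonocytes and 24 in other Epcam-positive cells. Against other Epcam-positive cells, 9 of the 13 markers that passed the filter were higher and 1 was lower (Guca2b, the uroguanylin gene, log2 -2.72), with a median log2 ratio of 2.41. Against Cyp2c55 colonocytes, 4 of the 14 were higher and 5 lower, with a median of -0.17. Aqp8 and Slc37a2 of this list are markers given with the class. The rule used Guca2a and Cyp2c55 of this list, so its sums and counts are partly fixed by the choice of cells. It also used Muc2, Chgb and Mki67 of the goblet, enteroendocrine and stem lists, many of whose members passed the filter only through the other Epcam-positive cells and could be called in that direction alone. Lgr5, the stem cell marker, was at 0 of 139 cells, which allows a share of cells with a count of up to 2.16% and sets no limit on cells that express the gene. Krt20, a keratin of differentiated cells, had a mean of 7.78 in Saa1 colonocytes, 8.57 in Cyp2c55 colonocytes and 1.46 in other Epcam-positive cells.

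The 4 other marker genes given with the class were higher in Saa1 colonocytes than in either comparison group. Atp12a, the non-gastric proton-potassium pump (chromosome 14, 56365068 to 56388550), had counts from 0 to 30 with a median of 1 in Saa1 colonocytes and from 0 to 5 with a median of 0 in Cyp2c55 colonocytes. It was above 0 in 88 of 139 against 5 of 343 cells, and the log2 ratio of means, 2.98 over 0.0379, was 5.96. The groups overlapped at 0, and counts above 5 occurred in Saa1 colonocytes alone of these 2 classes. Slc37a2, a sugar phosphate exchanger (chromosome 9, 37227585 to 37255738), ranged from 0 to 26 with a median of 3, against 0 to 7 with a median of 0. It was above 0 in 109 against 16 cells, with a log2 ratio of 5.47.

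Fxyd4, a regulator of the sodium pump that aldosterone induces (chromosome 6, 117933559 to 117937692), had counts that ran from 0 to 67 with a median of 4 in Saa1 colonocytes, and from 0 to 52 with a median of 0 in Cyp2c55 colonocytes, where 14 cells were above 0. In Saa1 colonocytes 89 cells were above 0 and 50 were not, with a log2 ratio of 3.96. Aqp8, a water channel of the colonocyte (chromosome 7, 123462291 to 123468004), ran from 0 to 69 with a median of 4, against 0 to 22 with a median of 0. It was above 0 in 109 against 73 cells, the largest overlap among the 4, with a log2 ratio of 3.12. In cells with Epcam below 5 the shares above 0 were 0.379% for Atp12a, 4.06% for Slc37a2, 7.82% for Fxyd4 and 1.47% for Aqp8. The Cyp2c55 colonocytes' shares of Slc37a2 (4.66%) and Fxyd4 (4.08%) were near or under these. A share does not show the level of a gene. Fxyd4 counts of 47, 48 and 52 occurred in single Cyp2c55 colonocytes, and its mean there rests on the 14 cells above 0.

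The markers occurred together in the same cells. At least 3 of Atp12a, Aqp8, Fxyd4 and Slc37a2 were above 0 in 94 of 139 Saa1 colonocytes (67.6%, 59.2 to 75.3), 5 of 343 Cyp2c55 colonocytes (1.46%), 123 of 2869 other Epcam-positive cells (4.29%) and 4 of 4487 cells with Epcam below 5. In 57 Saa1 colonocytes (41.0%) the 4 genes were all above 0.

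**Figure D2:**
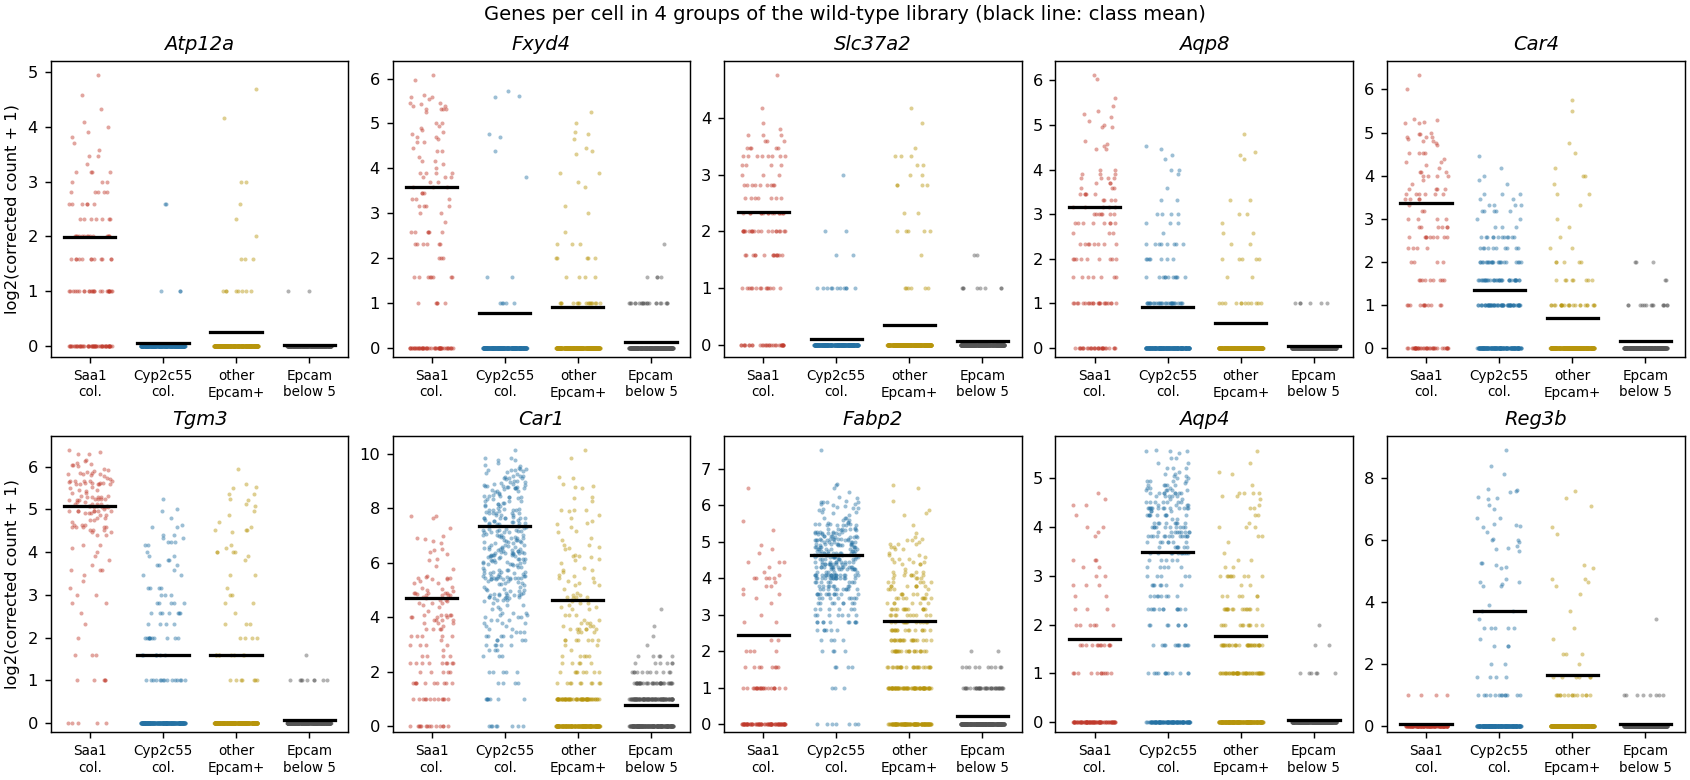
Corrected counts per cell of 10 genes, as log2 of the count plus 1, in Saa1 colonocytes, Cyp2c55 colonocytes, other Epcam-positive cells and cells with Epcam below 5, with 1 point per cell and a black line at log2 of the class mean plus 1. Up to 400 cells are drawn of each of the last 2 groups. Atp12a, Fxyd4, Slc37a2, Aqp8, Car4 and Tgm3 have higher means in Saa1 colonocytes, and Car1, Fabp2, Aqp4 and Reg3b have higher means in Cyp2c55 colonocytes.

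Beyond the markers of the rule, the genes with the largest ratios over Cyp2c55 colonocytes included Slc15a1 (log2 4.73), an oligopeptide transporter, Tgm3 (4.02), a protein cross-linking enzyme, Ly6g (3.94), Eno3 (3.58), an enolase, and Cyp2d34 (3.24), a cytochrome P450. Tgm3 had counts from 0 to 83 with a median of 32 in Saa1 colonocytes and from 0 to 37 with a median of 0 in Cyp2c55 colonocytes, and was above 0 in 134 of 139 against 82 of 343 cells. Cyp2d34 was above 0 in 133 Saa1 colonocytes and 88 Cyp2c55 colonocytes. Ly6g, known as a neutrophil surface gene, was above 0 in 100 of 139 Saa1 colonocytes, in which the leukocyte genes Ptprc and Lyz2 were at 0. Over other Epcam-positive cells the leading genes also held Car4 (log2 3.91), Ceacam20 (3.51), Tmem37 (3.39) and Prdx6 (3.35), a peroxidase of phospholipids. Prdx6 ran from 1 to 236 with a median of 88 in Saa1 colonocytes and had a median of 13 in Cyp2c55 colonocytes.

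Ion and water transport was uneven between the classes, gene by gene. Of 18 sodium and potassium transport genes that passed the filter, 3 were higher than in Cyp2c55 colonocytes and 2 lower, with a median log2 ratio of 0.27. Over all genes 7.23% were higher and 7.76% lower. Atp12a and Fxyd4, markers given with the class, are 2 of the 3, and Atp12a passed the filter through Saa1 colonocytes alone. The few calls left outside the markers do not set this list apart from all genes. The sodium pump subunit gene Atp1b1 had a mean of 16.2 in Saa1 colonocytes and 12.5 in Cyp2c55 colonocytes, with a log2 ratio of 0.38. Kcnq1, a basolateral potassium channel, was lower (log2 -1.68), and it passed the filter through Cyp2c55 colonocytes alone. Of the channel ENaC, whose subunits were looked at after values were seen, Scnn1a had a mean of 1.27 against 0.668, Scnn1b was above 0 in 2 of 139 cells and Scnn1g was at 0 in both classes.

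Among 16 chloride, bicarbonate and water transport genes, 3 were higher and 5 lower, with a median of -0.17. Aqp8, a marker given with the class, is 1 of the 3. Car4, a carbonic anhydrase held at the cell surface, ranged from 0 to 80 with a median of 5 in Saa1 colonocytes and from 0 to 21 with a median of 0 in Cyp2c55 colonocytes (log2 2.58). Car1, the cytosolic carbonic anhydrase, showed the opposite order, from 0 to 212 with a median of 12 against a median of 81 (log2 -2.70). The water channels were divided in the same way. Aqp8 was higher, while Aqp4 ran from 0 to 25 with a median of 0 in Saa1 colonocytes and had a median of 6 in Cyp2c55 colonocytes (log2 -2.16). Car12, a further surface carbonic anhydrase, was above 0 in 8 of 139 cells against 142 of 343 (log2 -2.76). It passed the filter through Cyp2c55 colonocytes alone. The sulfate and anion exchanger Slc26a2 had means of 6.85 and 4.70, under 2-fold apart.

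Genes linked to mineralocorticoid and glucocorticoid action had 14 members past the filter, 4 higher and 1 lower, with a median of 0.39. Atp12a and Fxyd4, markers given with the class, are 2 of the 4, and the others, Per1 (log2 1.73) and Usp2 (1.26), had means of 0.129 and 0.245 in Saa1 colonocytes. Atp12a, Per1 and Usp2 passed the filter through Saa1 colonocytes alone and could not have been called lower. Hsd11b2, the enzyme that shields the mineralocorticoid receptor from glucocorticoids, had means of 5.07 in Saa1 and 6.15 in Cyp2c55 colonocytes. Sgk1, a kinase that both hormones induce, had means of 1.71 and 2.48. Neither was past 2-fold.

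Use of short-chain fatty acids and ketone body synthesis leaned towards Cyp2c55 colonocytes, with 7 of 23 genes lower in Saa1 colonocytes, 1 higher and a median of -0.55, beside 7.76% lower and 7.23% higher over all genes. The fatty acid oxidation genes Acaa2 (log2 -1.47) and Acads (-1.17) were lower. Acaa2 was above 0 in 70 of 139 against 287 of 343 cells, and Acads had a median of 2 against 5. Oxct1, which turns ketone bodies back into an energy source, was the 1 higher member, with a median of 2 and above 0 in 122 of 139 cells, against 150 of 343 (log2 1.84). Over 41 nuclear-encoded genes of the respiratory chain, 0 were past 2-fold in either direction, and the median was -0.14.

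Of 43 enzymes of xenobiotic and steroid metabolism, 18 were lower, Cyp2c55 of the rule included, and 4 were higher. The median was -0.68, and it was the same with the 2 members at 0 in Saa1 colonocytes set to their bounds. Ces1g, a carboxylesterase, had 2 counts in all Saa1 colonocytes and was 88.5-fold higher in Cyp2c55 colonocytes (24.4 to 733, counting interval). Ugt2b5, a glucuronosyltransferase (log2 -3.83), Cyp2c65 (-3.48) and Hsd17b13 (-3.40) were further members that were lower. Cyp2c65, which was above 0 in 26 of 139 against 273 of 343 cells, lies beside Cyp2c55 of the rule. Cyp4b1 was at 0 in Saa1 colonocytes and at least 7.43-fold higher in Cyp2c55 colonocytes, and Ugt2b36 at least 5.27-fold, with 3 counts over the class as the floor. Ces1g, Ugt2b5, Cyp4b1 and Ugt2b36 passed the filter through Cyp2c55 colonocytes alone and could not have been called higher. Cyp2d34 stood at the other end, and the drug exporter Abcb1a (mean 4.73 against 3.69) and the sulfotransferase Sult1b1 (7.18 against 5.42) were under 2-fold apart.

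Single genes outside these lists were among the lowest in Saa1 against Cyp2c55 colonocytes, or belonged to lists with few such members. S100g, a calcium-binding protein of the absorptive cell, ranged from 0 to 1 in Saa1 colonocytes and up to 185 in Cyp2c55 colonocytes, and was above 0 in 8 of 139 against 101 of 343 cells (log2 -6.45). Slc51a, a subunit of the basolateral bile acid exporter, had 3 counts in Saa1 colonocytes and was 63.5-fold higher in Cyp2c55 colonocytes (21.6 to 309). Fabp2, the intestinal fatty acid binding protein, had a median of 0 against 20 (log2 -2.44), and was the member with the lowest ratio among 16 lipid genes, of which 2 were lower and 1 higher. Prkg2, a kinase downstream of guanylin signaling, was 67.5-fold higher in Cyp2c55 colonocytes (18.5 to 559), with 2 counts in Saa1 colonocytes. Rnf186, a ubiquitin ligase, was 30.8-fold higher (10.4 to 150). Acsf2 (log2 -4.05) and B4galnt1 (-3.73) followed. Hbb-bt, a hemoglobin gene, had a log2 ratio of -3.49 that became 0.29 without cells holding RNA of other cell types. Those cells were picked by a sum that includes Hbb-bt. S100g, Slc51a, Prkg2, Rnf186 and Hbb-bt passed the filter through Cyp2c55 colonocytes alone and could not have been called higher.

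Defence genes went in both directions, with 6 of 19 higher, 3 lower and a median of 0.65. The 3 lower members were Reg3b, Reg3g and Defb37, which passed the filter through Cyp2c55 colonocytes alone and could not have been called higher. Reg3b, a C-type lectin that binds bacteria, did not exceed 1 count in any Saa1 colonocyte and reached 483 in Cyp2c55 colonocytes, where the median was 0 too. It was above 0 in 4 of 139 against 70 of 343 cells, and its log2 ratio was -8.30. Reg3g, a lectin of the same family, had 3 counts in Saa1 colonocytes and was 93.1-fold higher in Cyp2c55 colonocytes (31.7 to 452). Defb37, a defensin, was 28.2-fold higher (9.53 to 138). Lypd8, which keeps flagellated bacteria off the surface, had medians of 204 and 99 (log2 0.85), and Muc3, a surface mucin, had medians of 23 and 14 (0.65). Saa1 is both a member of this list and a gene of the rule. Saa2 was above 0 in 17 of 139 Saa1 colonocytes and 3 of 343 Cyp2c55 colonocytes, with counts of at most 1 in either, which given the shared sequence cannot be told apart from reads of Saa1.

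Genes of the IL-22, IL-6 and STAT3 pathway had 8 of 26 members higher, 1 lower and a median of 0.51. Il18, an epithelial cytokine, had a median of 9 in Saa1 and 2 in Cyp2c55 colonocytes (log2 1.46). Tnfaip3, an inhibitor of NF-kappaB signaling, had a median of 1 against 0 (1.14). The chemokine gene Cxcl2 (log2 2.76) rested on 4 of 139 cells and Cxcl1 (1.42) on 13, and both passed the filter through Saa1 colonocytes alone. Interferon response and antigen presentation genes had 6 of 18 members lower, 2 higher and a median of -0.64. Irf7, which drives interferon genes, was above 0 in 49 of 139 against 215 of 343 cells (-1.51), and Ifit1 in 8 against 94 (-2.41). The class I genes H2-D1 (0.08), H2-K1 (0.32) and B2m (-0.31) were under 2-fold apart. Cd74, an antigen presentation gene shared with the immune list, was above 0 in 14 of 139 against 12 of 343 cells (2.17). It passed the filter through Saa1 colonocytes alone.

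The retinoid list was split evenly, with 5 of 14 members higher and 5 lower and a median of -0.05. Higher were Rbp2, the cellular retinol-binding protein of the gut (log2 2.16), Rdh16, a retinol dehydrogenase (2.11), and Adh1, an alcohol dehydrogenase that oxidizes retinol (1.90). Lower were Isx, a repressor of vitamin A uptake (-2.76), and Aldh1a1, which makes retinoic acid (-2.23). Aldh1a1 was above 0 in 20 of 139 against 198 of 343 cells.

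The regional transcription factors were divided along the Hoxb cluster. Of 15 that passed the filter, 3 were higher, 6 were lower and the median was -0.75. The 3 higher ones were Hoxb13, Hoxd13 and Hoxd11, of which Hoxd13 and Hoxd11 passed the filter through Saa1 colonocytes alone and could not have been called lower. Hoxb13 (chromosome 11, 96194316 to 96197447) had counts from 0 to 14 with a median of 4 in Saa1 colonocytes and from 0 to 9 with a median of 0 in Cyp2c55 colonocytes. It was above 0 in 123 of 139 (88.5%) against 109 of 343 cells (31.8%), and in 1.63% of cells with Epcam below 5, with a log2 ratio of 2.45 over Cyp2c55 colonocytes and 1.06 over other Epcam-positive cells. Hoxd13 was above 0 in 32 against 7 cells (log2 3.35) and Hoxd11 in 18 against 6 (2.34). Against other Epcam-positive cells, 1 of 15 members was higher and 9 lower, with a median of -1.26. Hoxd13 was under 2-fold apart there (0.87). The mean of Hoxb13 was 4.32 in Saa1 colonocytes, 0.781 in Cyp2c55 colonocytes and 2.06 in other Epcam-positive cells.

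The 6 that were lower than in Cyp2c55 colonocytes were 5 Hoxb genes at the other end of the same cluster and Cdx2. Hoxb4, Hoxb5, Hoxb6 and Hoxb7 passed through Cyp2c55 colonocytes alone and could not have been called higher, while Hoxb9 and Cdx2 passed in both classes. Hoxb6 had 2 counts in Saa1 colonocytes and was 16.2-fold higher in Cyp2c55 colonocytes (4.34 to 136), Hoxb4 was 10.1-fold higher (2.66 to 86.0) and Hoxb5 was 7.29-fold higher (1.88 to 62.5). Hoxb7 (log2 -1.72) and Hoxb9 (-1.83) were above 0 in 6 and 17 of 139 Saa1 colonocytes, against 56 and 143 of 343. Hoxb8 was at 0 of 139 cells and was at least 4.32-fold higher in Cyp2c55 colonocytes, although its mean there did not pass the filter. Hoxb4 to Hoxb9 lie between 96271457 and 96321638 on chromosome 11. Cdx2, the caudal factor that sets intestinal identity, had a median of 0 against 2 (log2 -1.93), while Cdx1 (-0.57) was under 2-fold apart. Hoxa13 was near level, with a log2 ratio of 0.43.

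**Figure D3:**
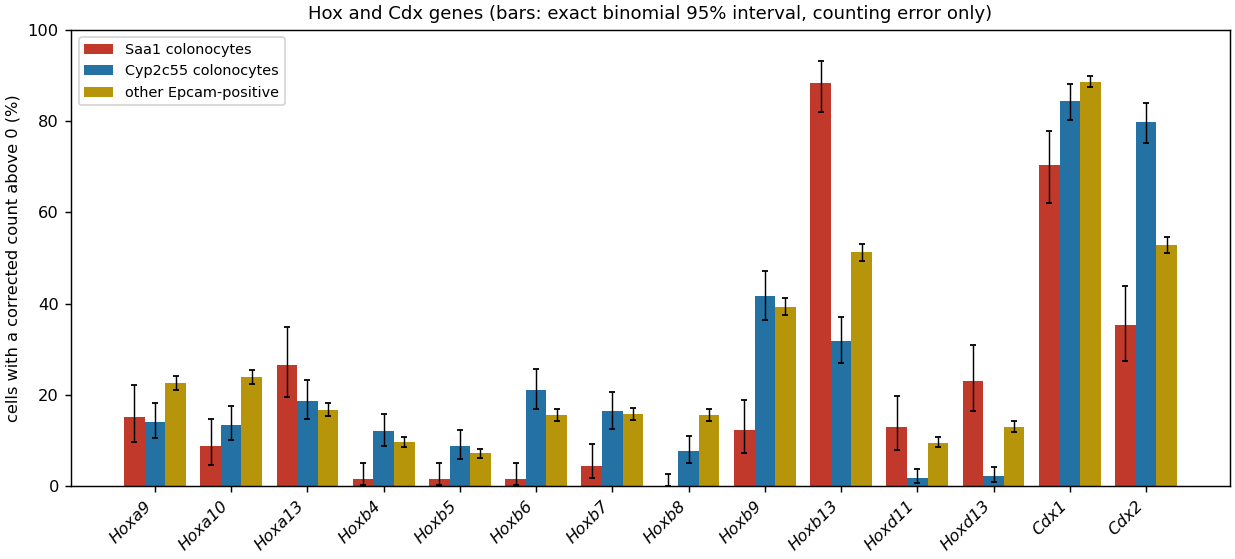
Share of cells with a corrected count above 0, in percent, for 12 Hox genes, Cdx1 and Cdx2 in Saa1 colonocytes, Cyp2c55 colonocytes and other Epcam-positive cells. Thin bars are exact binomial 95% intervals that cover counting error only. Shares for Hoxb13, Hoxd11 and Hoxd13 are higher in Saa1 than in Cyp2c55 colonocytes, and those for Hoxb4 to Hoxb9 and Cdx2 are lower.

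Of 29 further absorptive transcription factor genes, 2 were higher (Max, log2 1.38, and Nr1h3, 1.12) and 3 lower, Cdx2 among them, as was Pparg, a fatty acid sensor that was above 0 in 65 of 139 against 285 of 343 cells (-1.34). These counts are near the shares over all genes, 7.23% higher and 7.76% lower. Klf4 and Klf6 had ratios of -0.04 and -0.17. In the brush border list 1 of 24 genes was higher and 2 lower than in Cyp2c55 colonocytes, with a median of 0.10, while against other Epcam-positive cells 19 of 25 were higher with a median of 1.39. Eps8, which caps and bundles microvillus actin, was the higher one (log2 1.10), and Tmigd1 (-1.38) and Slc51a were the lower ones. Slc51a passed the filter through Cyp2c55 colonocytes alone and could not have been called higher. These counts against Cyp2c55 colonocytes are also near the shares over all genes. Of 18 claudin and junction genes 0 were higher and 2 lower, the pore-forming claudins Cldn15 (-2.91) and Cldn2 (-1.67). Both passed the filter through Cyp2c55 colonocytes alone and could not have been called higher. Cldn15 was above 0 in 5 of 139 against 134 of 343 cells.

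The surface and cell death list had 5 of 23 members higher and 2 lower, with a median of -0.09 against Cyp2c55 colonocytes and 1.07 against other Epcam-positive cells. Ceacam20, an adhesion protein of microvilli, had a median of 4 against 1 (log2 1.62) and Clu, clusterin, was above 0 in 24 against 15 cells (1.66). Clu passed the filter through Saa1 colonocytes alone. Emp1 (-1.30) and Plaur (-1.53) were lower, and Lgals3, a galectin of the surface epithelium, had means of 48.4 and 63.9.

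**Figure D4:**
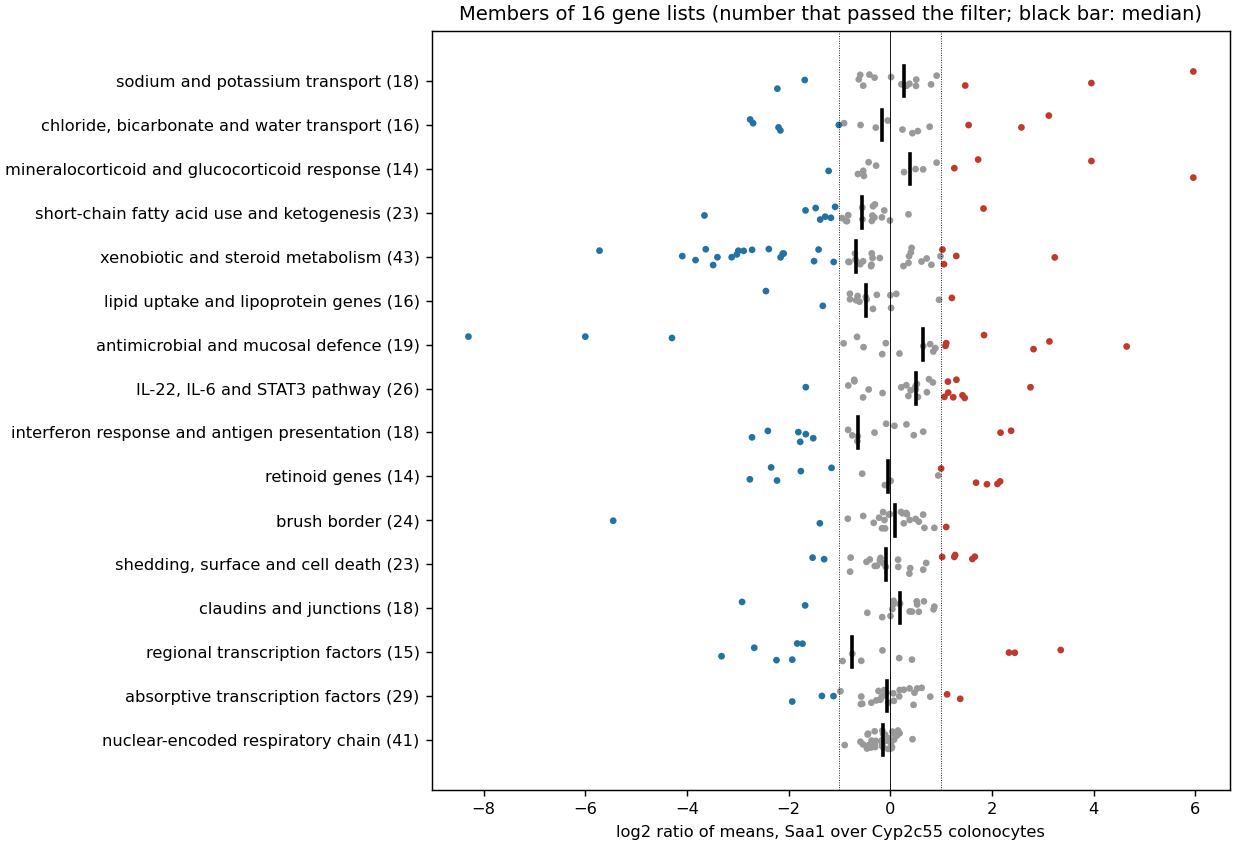
Log2 ratio of mean corrected counts, Saa1 over Cyp2c55 colonocytes, for the members of 16 gene lists, with 1 point per gene that passed the filter, a black bar at the median of each list and dotted lines at 2-fold. Red points are past 2-fold higher and blue points past 2-fold lower in Saa1 colonocytes. Xenobiotic and steroid metabolism has 18 of 43 points past the lower line, and the respiratory chain has none past either line.

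Within the 139 Saa1 colonocytes the genes of the class were not all highest in the same cells. Saa1 correlated with Car4 (Spearman 0.55), Aqp8 (0.53) and Atp12a (0.50), and had a value of 0.01 with Hoxb13. Its values with Prdx6 (0.44), Slc37a2 (0.40) and Tgm3 (0.39) lay between, and that with Fxyd4 was 0.17. Atp12a also correlated with Slc37a2 (0.66), Tgm3 (0.64) and Fxyd4 (0.52), so the genes do not form separate groups. Fxyd4 correlated with Prdx6 (0.73), Slc37a2 (0.56), Hoxb13 (0.56) and Tgm3 (0.53), and had values near 0 with Aqp8 (0.07) and Car4 (-0.07). Guca2a, the guanylin gene of the rule, correlated negatively with Fxyd4 (-0.46) and positively with Cyp2c55 (0.42). These are descriptions over 139 cells of 1 library whose depth had been corrected, and Saa1, Cyp2c55 and Guca2a are restricted in range by the rule.

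**Figure D5:**
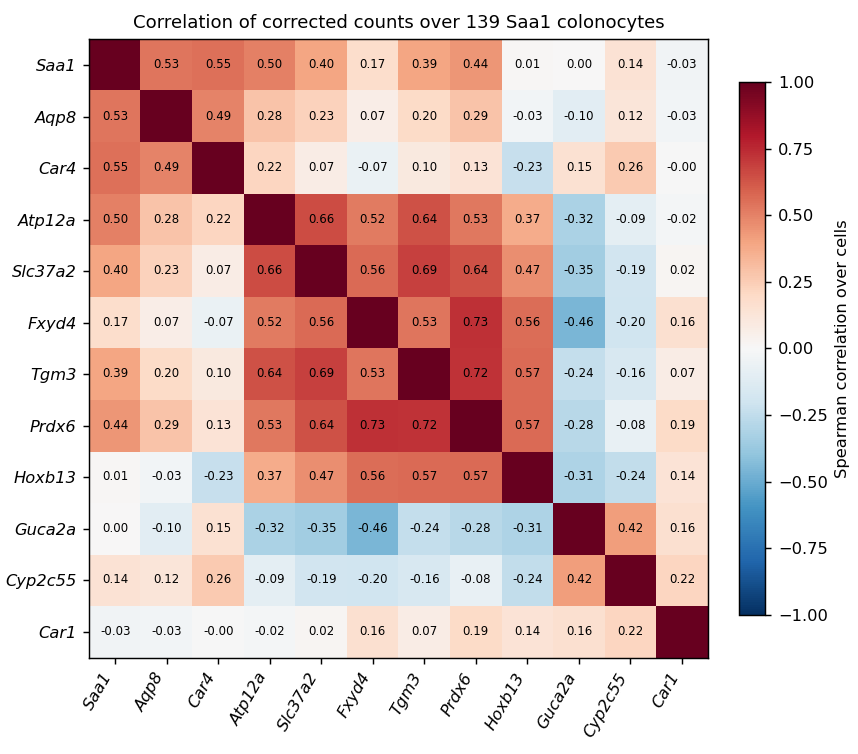
Spearman correlation of corrected counts over the 139 Saa1 colonocytes for 12 genes on both axes, with red for positive and blue for negative values. Slc37a2, Fxyd4, Tgm3, Prdx6 and Hoxb13 have values of 0.47 to 0.73 with each other, and Saa1, Aqp8 and Car4 have values of 0.49 to 0.55. Atp12a has values of 0.66 with Slc37a2 and 0.50 with Saa1, and Saa1 has 0.44 with Prdx6.

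The cells at the edges of the rule were described in the same way. In the 27 Saa1 colonocytes with Saa1 above Cyp2c55 by 1 to 3 counts, Atp12a had a mean of 1.63 (median 0) and Aqp8 of 2.11 (median 1). An Atp12a count of 30 in a single cell weighs on the first mean. In the 50 cells with equal counts the means were 0.14 and 0.44, with medians of 0. In the 36 cells with Cyp2c55 above by 1 to 3 the means were 0.0278 and 0.361, with medians of 0. The 36 Saa1 colonocytes with Guca2a of 10 to 14 had a mean of 45.5 (median 38) for Saa1, 3.22 (median 2) for Atp12a and 8.36 (median 6.5) for Aqp8. In the 62 cells with Guca2a of 5 to 9 that otherwise met the rule they were 27.3 (median 9), 3.27 (median 1) and 5.45 (median 2). Of 193 Epcam-positive cells with Saa1 of 10 or more, 109 were in the class, 62 had Guca2a below 10 and 19 were Cyp2c55 colonocytes.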

How the data were processed

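Single-cell RNA was measured in 1 library per condition, each pooling cells of 3 mice, and the wild-type library (17809 genes, 7495 cells) was analyzed. The authors aligned reads to mm10 with Cell Ranger and filtered cells and genes in Seurat 3.1 under R 3.6.2, keeping 500 to 7500 genes per cell with a mitochondrial limit of 25%, and applied SCTransform. The number of cells differs slightly from the paper's number after these limits, and cells were used as deposited. By corrected counts, 0 Saa1 colonocytes, 59 other Epcam-positive cells and 42 cells with Epcam below 5 were at 25% or more mitochondrial counts. The score values as deposited are whole-number UMI counts corrected by SCTransform, so the sequenced depth of a cell cannot be recovered and a value above 0 need not be a molecule of that cell. The second deposited table holds the natural log of 1 plus each corrected count and was read only as a check. As no UMI counts were used and each condition has 1 library, count models and tests were not applied.

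Means per cell and log2 ratios (pseudocount 0.01, mean of at least 0.1 in either group, called past 2-fold) were computed with pandas 2.3.3, scipy 1.17.1 and numpy 2.4.6 under Python 3.11.15. Shares have Clopper-Pearson 95% intervals, ratios from 1 to 3 counts have exact counting intervals, and a class at 0 is set to 3 counts over the class. Intervals cover counting error only. The ratio was tested on simulated data. Scrublet was run in scanpy 1.11.5, alignments in biopython 1.88 and figures in matplotlib 3.10.9. Coordinates are from GENCODE M21 on GRCm38, joined by symbol (97.7% of genes matched), and promoters are from RefSeq.

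Named genes are the 15 with the largest ratio in each direction of both comparisons among genes with a mean of at least 0.5, the genes of the rule and its markers, and, in each of 31 lists, the members with the largest means and ratios. Other genes were named after their values were seen, and some genes the rule would name are not reported here. The members and lists were chosen with earlier results of these data known. Alternatives changed the Saa1, Guca2a and Muc2 thresholds, left out cells with many mitochondrial counts, doublets or RNA of other cell types, and changed the scaling, the pseudocount and the filter.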

Additional observations from a re-analysis of the deposited data

Results flagged for a closer look

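Saa1 was above 0 in 11 of 4409 cells of the reporter library (0.249%, Clopper-Pearson 95% interval 0.125 to 0.446), with a highest corrected count of 47. That library holds GFP-positive mesenchymal cells and is used in no comparison here, and the share is above the limit that a count of 0 allows (0.0680%). Epcam was above 0 in 63 of the same 4409 cells (1.43%) and Guca2a in 35 (0.794%), and their part in the Saa1 counts was not tested.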

How the results depend on the processing

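The share of Epcam-positive cells in the class, 4.62%, was 3.62% with Saa1 at least 2 times Cyp2c55 plus 1, 3.62% with Saa1 below 10 left out (chosen after seeing the data), 2.89% with Guca2a of at least 20, 6.68% with Guca2a of at least 5 and 0.940% (15 cells) without cells at 10% or more mitochondrial counts. Against Cyp2c55 colonocytes, 593 genes higher and 637 lower became 1911 and 1411 with those 15 cells, 273 and 284 with a pseudocount of 0.1, 180 and 215 with a mean of at least 0.5, and 1206 and 1459 with no filter. Against other Epcam-positive cells, 854 higher and 2486 lower became 535 and 735 with a mean of at least 0.5, where the median log2 ratio moved by 0.30 and higher calls were 42.1% of calls against 25.6%. The lower calls were 1382 with a pseudocount of 0.1 and 4119 with no filter. With 15 cells, higher calls against Cyp2c55 colonocytes were 57.5% of calls against 48.2%. The cause of these moves was not tested beyond the fewer cells or genes that a setting leaves.

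Of 60 log2 ratios of named genes under 11 settings, 518 of 660 values moved by less than 1.5-fold, 136 moved by more in the same direction and 6 changed sign. The moves were unevenly spread, with 43 of 60 values moved when cells at 10% or more mitochondrial counts were left out, 36 of 60 with a pseudocount of 0.1 and 0 under 3 settings (Scrublet doublets left out and both scalings to a fixed total). Hbb-bt against Cyp2c55 colonocytes became 0.69 with Guca2a of at least 5. It became 0.29 without cells holding RNA of other cell types, which were picked by a sum that includes Hbb-bt. Without those cells, C3 became -0.71, Pi16 -0.40 and Mfap5 -0.40, and Pi16 against other Epcam-positive cells became -0.56, but the class was then at 0 for these genes, so that these 4 signs come from the pseudocount and give no direction.

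No paired analysis was possible because each condition has 1 library. Leaving out a replicate was not possible for the same reason. Corrected counts limit what low values can show, and differences between mice cannot be seen.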

Other observations

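Single signaling genes differed between the classes. Bmp2, a ligand of the bone morphogenetic protein pathway, had a median of 1 in Saa1 colonocytes and 0 in Cyp2c55 colonocytes, was above 0 in 92 of 139 against 82 of 343 cells and had a log2 ratio of 2.04. Its response genes Id1 (-0.67) and Id3 (-0.93) had ratios on the other side of 0, under 2-fold. Bmp4 had a ratio of 1.19, and its counts in the class all lay in cells holding RNA of other cell types. The growth factor gene Areg had medians of 16 and 14 and Hbegf of 7 and 6, while Ereg (1.37) rested on 12 of 139 cells. Ereg passed the filter through Saa1 colonocytes alone. Among 25 immediate early and stress genes, 1 was higher and 2 lower than in Cyp2c55 colonocytes (4 lower without cells holding RNA of other cell types). Over all genes 7.23% were higher and 7.76% lower, so the counts of 1 and 2 are near the background. Dusp6, an ERK phosphatase, was higher (1.48), and the heat shock gene Hsph1 (-1.57) and Myc (-1.06) were lower. Myc passed the filter through Cyp2c55 colonocytes alone. Over 13 mitochondrially encoded genes 0 were past 2-fold, with a median of -0.01.

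Secreted products of other lineages were low but not absent. Pyy and Insl5, hormones of enteroendocrine cells, were above 0 in 11 and 6 of 139 Saa1 colonocytes, with highest counts of 28 and 11. Tff3, a goblet cell peptide, was above 0 in 37 of 139 cells and reached 167 in the highest. Against Cyp2c55 colonocytes, Pyy (log2 1.78), Insl5 (2.55) and Tff3 (1.34) were past 2-fold higher. Pyy and Insl5 passed that filter through Saa1 colonocytes alone and could not have been called lower. Tff3 was the 1 higher of 7 goblet markers that passed, with 0 lower. Against other Epcam-positive cells, Retnlb (log2 -6.18), Gcg (-6.10), Nov (-5.76), Gm1123 (-5.45), Spink4 (-5.38) and Chga (-5.35) were among the lowest. Mt3 was at 0 in Saa1 colonocytes and at least 24.0-fold higher in other Epcam-positive cells. Cd177, Tph1, Clps and Atoh1 had 1 or 2 counts each, with folds of 166 (29.8 to 6575), 144 (25.8 to 5683), 70.3 (19.4 to 581) and 92.8 (16.6 to 3666). Mt3, Cd177, Tph1, Clps and Atoh1 passed the filter through other Epcam-positive cells alone and could not have been called higher. The rule left out cells with Muc2 or Chgb of 20 or more. Low goblet and enteroendocrine genes were thus partly fixed by the choice of cells.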
